A study of Bos taurus with 52 samples.

Results

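At day 17 of bovine pregnancy the conceptus lies free in the uterine lumen against the endometrium that will receive it. This comparison set all 27 conceptus libraries of the study against the 10 endometrium libraries of pregnant heifers, which is 37 of the 52 libraries. Its libraries were picked by their labels and not by measured values, as every conceptus sample and every endometrium sample labelled pregnant and high-fertile (P-HF) or pregnant and sub-fertile (P-SF). All animals were heifers, and their class, high-fertile (HF), sub-fertile (SF) or infertile (IF), came from the labels.

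The conceptuses fell into 3 groups. There were 10 from SF heifers, 10 from HF heifers that were labelled long, and 7 from HF heifers that were labelled short. The endometrium held 5 P-HF and 5 P-SF libraries, each from a different heifer. Nothing in the labels gave a treatment, and the labels gave no age. The remaining 15 libraries came from non-pregnant endometrium of HF, SF and IF heifers, 5 of each class, and were used here only as values beside a result. The conceptuses came from 19 heifers by the animal number in their titles, of which 11 gave 1 library and 8 gave 2, so conceptus libraries were not all independent. Endometrium titles carried longer animal numbers, so the tissues were matched by the last 3 digits, a link inferred here. By that match the endometrium of the same animal was among the 10 for 8 of the 19 heifers, which covered 12 conceptus libraries. For 20 conceptus samples the GEO description named another animal than the title, and the title was used.

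The conceptus at this stage is an elongating sheet of trophectoderm, the outer layer that becomes placenta, lined by extraembryonic endoderm and carrying a small embryonic disc. Ruminant trophectoderm secretes interferon tau, the signal by which the mother recognises the pregnancy, together with pregnancy-associated glycoproteins and trophoblast Kunitz domain proteins. The endometrium is maternal tissue made of luminal and glandular epithelium, stroma, vessels and immune cells, and it feeds the unattached conceptus by secretion and answers interferon tau through a receptor made of a pair of chains.

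A library held from 20549492 to 46966995 counted reads in the conceptuses and from 17077635 to 27292222 in the pregnant endometria. Between 18818 and 22694 genes had a read in a conceptus, and between 23085 and 24233 in an endometrium. In conceptuses 12.1 to 18.95% of the reads belonged to the 10 most abundant genes, in endometria 3.22 to 3.93%. Levels below are CPM (the reads of a gene as a share of the library's reads, scaled to 1000000 reads) after TMM scaling, which corrects library sizes for such dominant genes. They are compared between libraries for 1 gene and never between genes, since gene lengths were not used. The RNA of the 2 tissues was extracted with different reagents, so tissue and reagent cannot be told apart, and only large differences are described as results. In bulk tissue, fewer cells of a type and less RNA per cell cannot be told apart either.

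The defining markers of both tissues were present where the labels put them. The summed level of 16 tested trophoblast products ran from 14606 to 107928 CPM in conceptuses and from 62.1 to 129 CPM in pregnant endometria. The summed level of EMX2 and PAX2, transcription factors of the Müllerian tract from which the uterus forms, ran from 119 to 155 CPM in endometria and from 0 to 7.89 CPM in conceptuses. No library stood with the wrong tissue. However, 5 conceptus libraries held the most EMX2 plus PAX2, at 2.49 to 7.89 CPM, while the other 22 had at most 1.17 CPM. They came from 3 heifers, and they were SF replicates 5, 6 and 9, HF long replicate 3 and HF short replicate 2. For the endometrial genes GRP, LIFR, IGFBP1 and KDR, SF replicates 5 and 6 did not exceed all of the other 22. The part of uterine transcripts in any result was not tested. Of 264 genes described by name, 63 moved by over 1.5 times when these 5 libraries were left out, all of them toward lower in the conceptus, and 62 of the 63 were endometrial genes. None of those still tested gained or lost a call, and none lost its size class. Gains in size class were not counted, and HBA was no longer tested without the 5. Where a fold change printed for such a gene moved by that much, its value "without the 5" stands beside it.

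A gene was called where the adjusted p fell under 0.05 in the quasi-likelihood test of edgeR, with p-values adjusted by Benjamini-Hochberg over 20706 tested genes. A gene was called large and consistent where, in addition, it differed at least 8-fold and the CPM ranges of the 27 conceptuses and the 10 endometria did not overlap. By the first rule 39.9% of all tested genes were higher in the conceptus and 49.4% were lower. By the second rule 7.79% (1614 genes) were higher and 18.7% (3875 genes) were lower. These shares are the background against which every count below is read. The median log2 fold change of all tested genes was −0.34, where positive means higher in the conceptus. With library totals alone and no scaling factors that median moved to −1.37, the large and consistent split became 986 higher and 5634 lower, and the called split became 5183 higher and 13586 lower. Without the 5 conceptus libraries named above, 1686 genes were large and consistent higher and 4256 lower.

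Of 784 genes on the lists described here, 757 were in the table and 672 had enough reads to be tested, while 85 were in the table but too low. Among the tested members 354 were large and consistent, 107 of them higher in the conceptus and 247 in the endometrium. The adjusted p of these 354 ran from 3.49e-33 to 4.36e-06 (edgeR's quasi-likelihood test, Benjamini-Hochberg), so p-values are not repeated for each. They measure the spread between these libraries only. Each fold change is given on the log2 scale, as the model estimate ± its standard error over 27 and 10 libraries. Putting genes with no read in 1 tissue at their bound changed the median of no list.

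**Figure D1:**
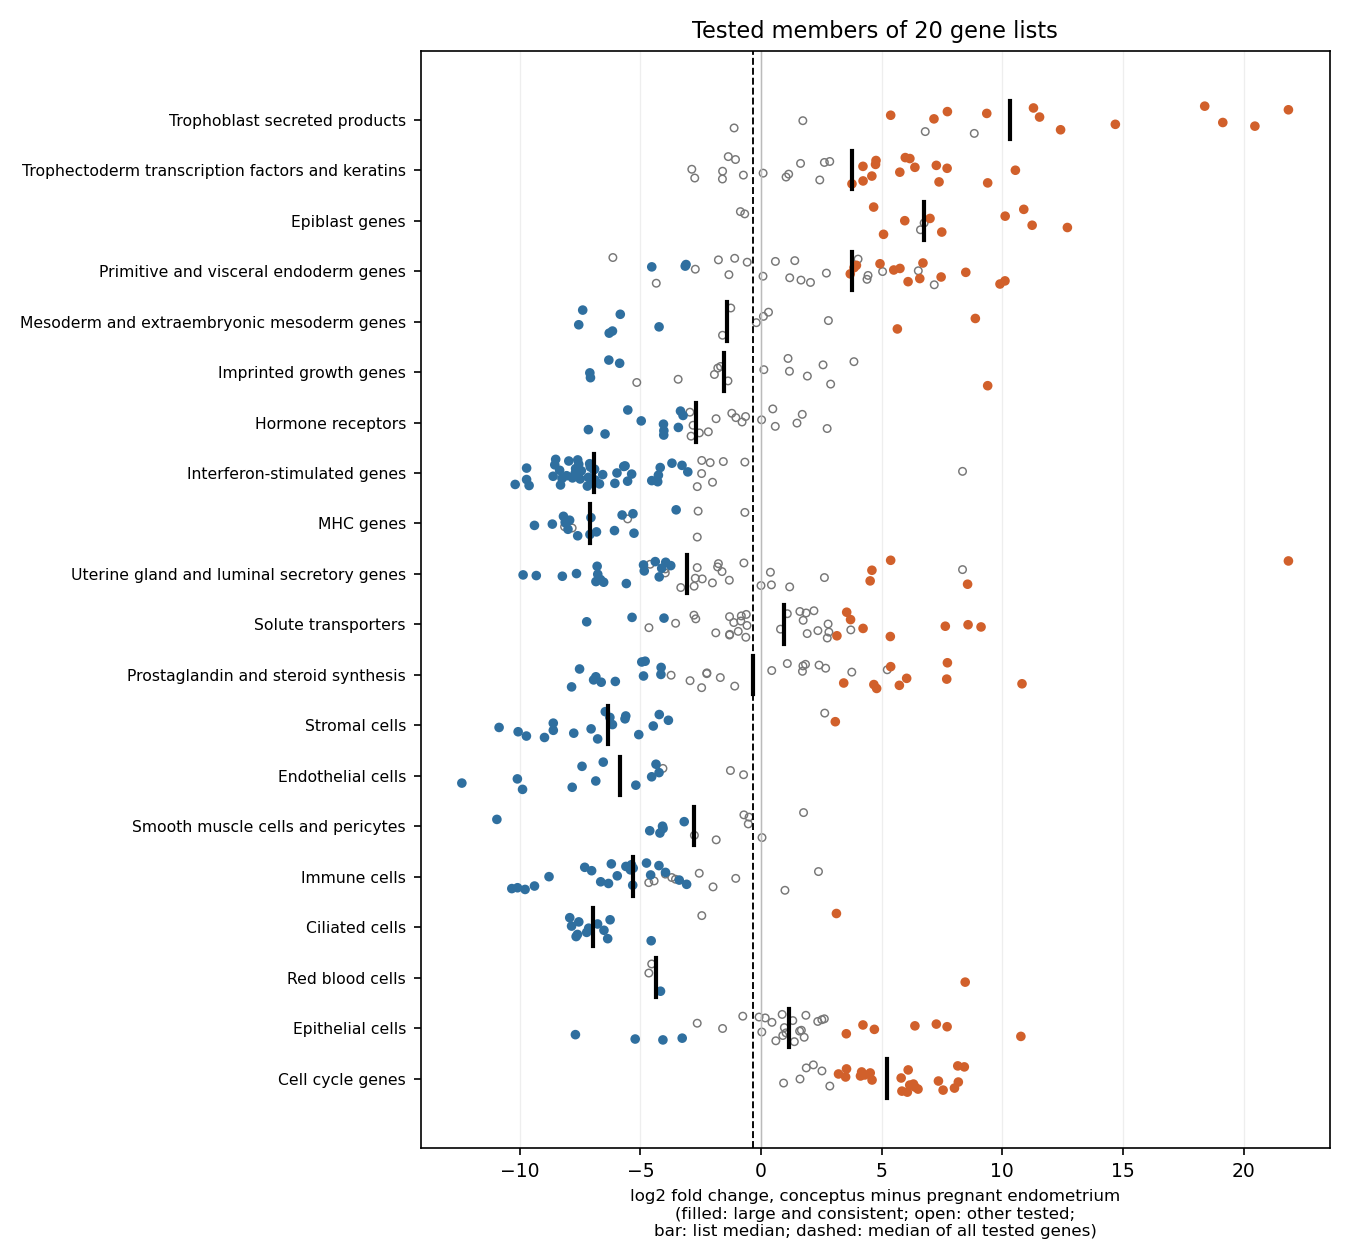
Each point is 1 tested gene of a list, placed by its log2 fold change of conceptus minus pregnant endometrium (x axis). Filled points were large and consistent, open points were not, black bars mark each list's median, and the dashed line marks the median of all tested genes, −0.34. Trophoblast products, epiblast genes and cell cycle genes lie to the right, and stromal, endothelial, interferon-stimulated and MHC genes lie to the left.

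Interferon tau was carried by the conceptus and 1 chain of its receptor by the endometrium. The interferon tau gene IFNT2 ran from 1070 to 17913 CPM in the conceptuses, with a median of 9151 CPM. In the pregnant endometria it ran from 0.999 to 2.21 CPM, and in the non-pregnant endometria from 0.665 to 1.83 CPM. Every conceptus lay above every endometrium, and the log2 fold change was 12.41 ± 0.52. Interferon tau genes are close copies of each other, so which copy a read belongs to is uncertain.

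The receptor chain IFNAR2, which binds the interferon and passes the signal on through JAK kinases, showed the opposite order. Its level was 17.1 to 23.3 CPM in pregnant endometria (median 21.8) and 14.8 to 26.9 CPM in non-pregnant endometria. In the conceptuses it ran from 0 to 0.890 CPM with a median of 0.0466 CPM, a log2 fold change of −7.19 ± 0.52. The 3 highest conceptus values belonged to libraries among the 5 with the most EMX2 plus PAX2. Without those 5 the fold change was −8.82. The partner chain IFNAR1 was present on both sides, at 12.2 to 40.5 CPM in conceptuses (median 28.4) and 32.9 to 51.5 CPM in endometria (median 43.2). Those ranges overlapped, and the log2 fold change was only −0.64 ± 0.12.

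Genes that interferon induces were endometrial. Of 51 tested members of the list, 43 were large and consistent lower in the conceptus, none higher, and 50 were called lower, with a list median of −6.93. Together they summed to 347 to 1075 CPM in conceptuses, 8990 to 22958 CPM in pregnant endometria and 1110 to 2363 CPM in non-pregnant endometria. Each conceptus therefore lay below each endometrium, also below the non-pregnant ones.

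Single members of that list ran as follows. RSAD2, an antiviral enzyme known as viperin, was at 374 to 1633 CPM in pregnant endometria and 0.0742 to 24.3 CPM in conceptuses, a log2 fold change of −8.55 ± 0.68 (−10.32 without the 5). OAS2, which makes the activator of RNase L, was at 58.6 to 238 CPM against 0 to 0.786 CPM (−9.72 ± 0.42, or −10.76 without the 5). IFIT2 was at 29.1 to 250 CPM against 0 to 2.82 CPM (−8.62 ± 0.53, or −9.63 without the 5). None of these ranges met. The membrane-associated IFI27 had 175 to 355 CPM in pregnant endometria and at most 9.44 CPM in a conceptus (−9.72 ± 0.60, or −11.33 without the 5). The chemokines CXCL10 and CXCL9, which draw T cells, reached 125 and 33.9 CPM in pregnant endometria and at most 0.623 and 0.0933 CPM in conceptuses. The 1 member called higher in the conceptus was the galectin LGALS9, with 0 to 11.1 CPM in conceptuses and 3 reads over all 10 endometria. The effector MX1 was at 9.82 to 99.5 CPM in the 5 conceptus libraries with the most EMX2 plus PAX2. MX1 was at 0.385 to 12.1 CPM in the other 22 and at a mean of 1687 CPM in pregnant endometria. Its log2 fold change was −7.45 ± 0.64 over all libraries and −8.90 without the 5.

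**Figure D2:**
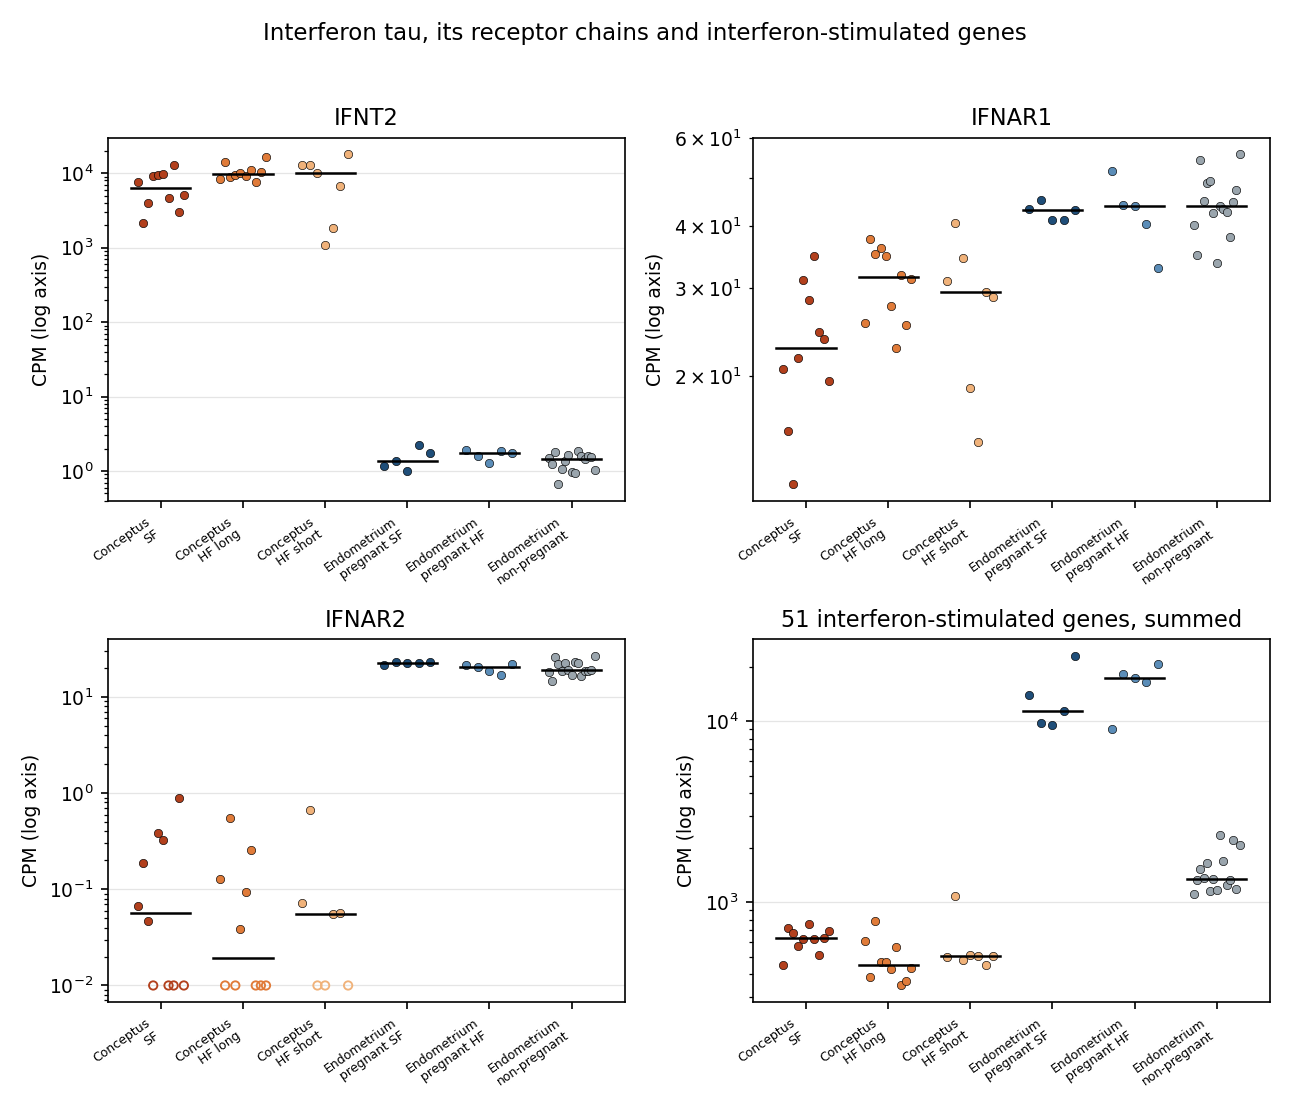
CPM on a log axis for IFNT2, IFNAR1, IFNAR2 and the sum of 51 interferon-stimulated genes, with 1 point per library in the 6 groups on the x axis; black bars are group medians and open circles are libraries at 0 CPM. IFNT2 is high in all 27 conceptuses, IFNAR2 is near 0 there, IFNAR1 overlaps between tissues, and the summed genes are highest in the 10 pregnant endometria.

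Trophoblast products had the largest median of the 20 lists. Of 42 listed genes 16 were tested, 12 were large and consistent higher, none was lower at that size, and the list median was 10.32. In each conceptus the trophoblast Kunitz domain protein TKDP1, a secreted protein related to protease inhibitors, ran from 3468 to 54030 CPM (median 41116). The 10 endometria together held 3 TKDP1 reads, which put the log2 ratio at 22.14 with a 95% counting interval of 20.59 to 24.42. TKDP4 of the same family ran from 248 to 28368 CPM (median 1482), also against 3 reads, a log2 ratio of 19.23.

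Pregnancy-associated glycoproteins are secreted aspartic protease relatives that pass into maternal blood. PAG11 ran from 2332 to 27731 CPM (median 11687) and had 2 reads over the 10 endometria, a log2 ratio of 21.05 (95% counting interval 19.20 to 24.09). PAG2 ran from 341 to 5505 CPM (median 2577) and had no read in any pregnant endometrium, which made it at least 321955-fold higher when 3 reads are taken as the floor over the group. PAG12, with 1 endometrial read, ran from 1.93 to 1503 CPM with a median of 28.8 CPM, a far wider relative range than that of PAG11 or PAG2. All conceptuses lay above all endometria for each of these genes. The copies of this family resemble each other closely, so the split of reads between them is uncertain. The 1 tested member called lower was PAG1 (−1.12), and PAG21 overlapped between tissues, with medians of 0.116 and 0.0400 CPM.

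Other trophoblast products differed by less. The secreted Ly-6 protein gene SSLP1 ran from 1074 to 5438 CPM in conceptuses and from 2.97 to 8.30 CPM in endometria, a log2 fold change of 9.35 ± 0.33. PTGS2, the cyclooxygenase that makes prostaglandin precursors, ran from 803 to 8199 CPM (median 3337) against 50.8 to 120 CPM (median 75.6), a log2 fold change of 5.37 ± 0.33. The estrogen sulfotransferase SULT1E1 was at 0.605 to 27.98 CPM against at most 0.0820 CPM (7.72 ± 0.80). CGA, the shared subunit of the glycoprotein hormones, reached 134 CPM in 1 conceptus but had a median of 0.770 CPM and a minimum of 0, so its ranges touched and it was not large and consistent. The gene listed as IFN-TAU was not either, at 0.0629 to 4.57 CPM against at most 0.0820 CPM.

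Conceptuses differed widely among themselves in these genes. Over the 107 members that were large and consistent higher in the conceptus, the coefficient of variation among the 27 libraries had a median of 38.3%, with a lowest value of 10.9% for the mitotic kinase BUB1 and a highest of 346% for TKDP2. TKDP2 ran from 0.997 to 1269 CPM. For the 247 members that were endometrial the median among 10 libraries was 29.3%. Mean IFNT2 was 6768 ± 3537 CPM in 10 SF conceptuses, 10594 ± 2717 CPM in 10 long HF conceptuses and 9034 ± 6186 CPM in 7 short HF conceptuses (SD), while every one of the groups lay above 1000 CPM in each library. Mean TKDP4 was 1844 ± 2127, 8232 ± 9488 and 4353 ± 5612 CPM in the same order, so its SDs exceeded the means.

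**Figure D3:**
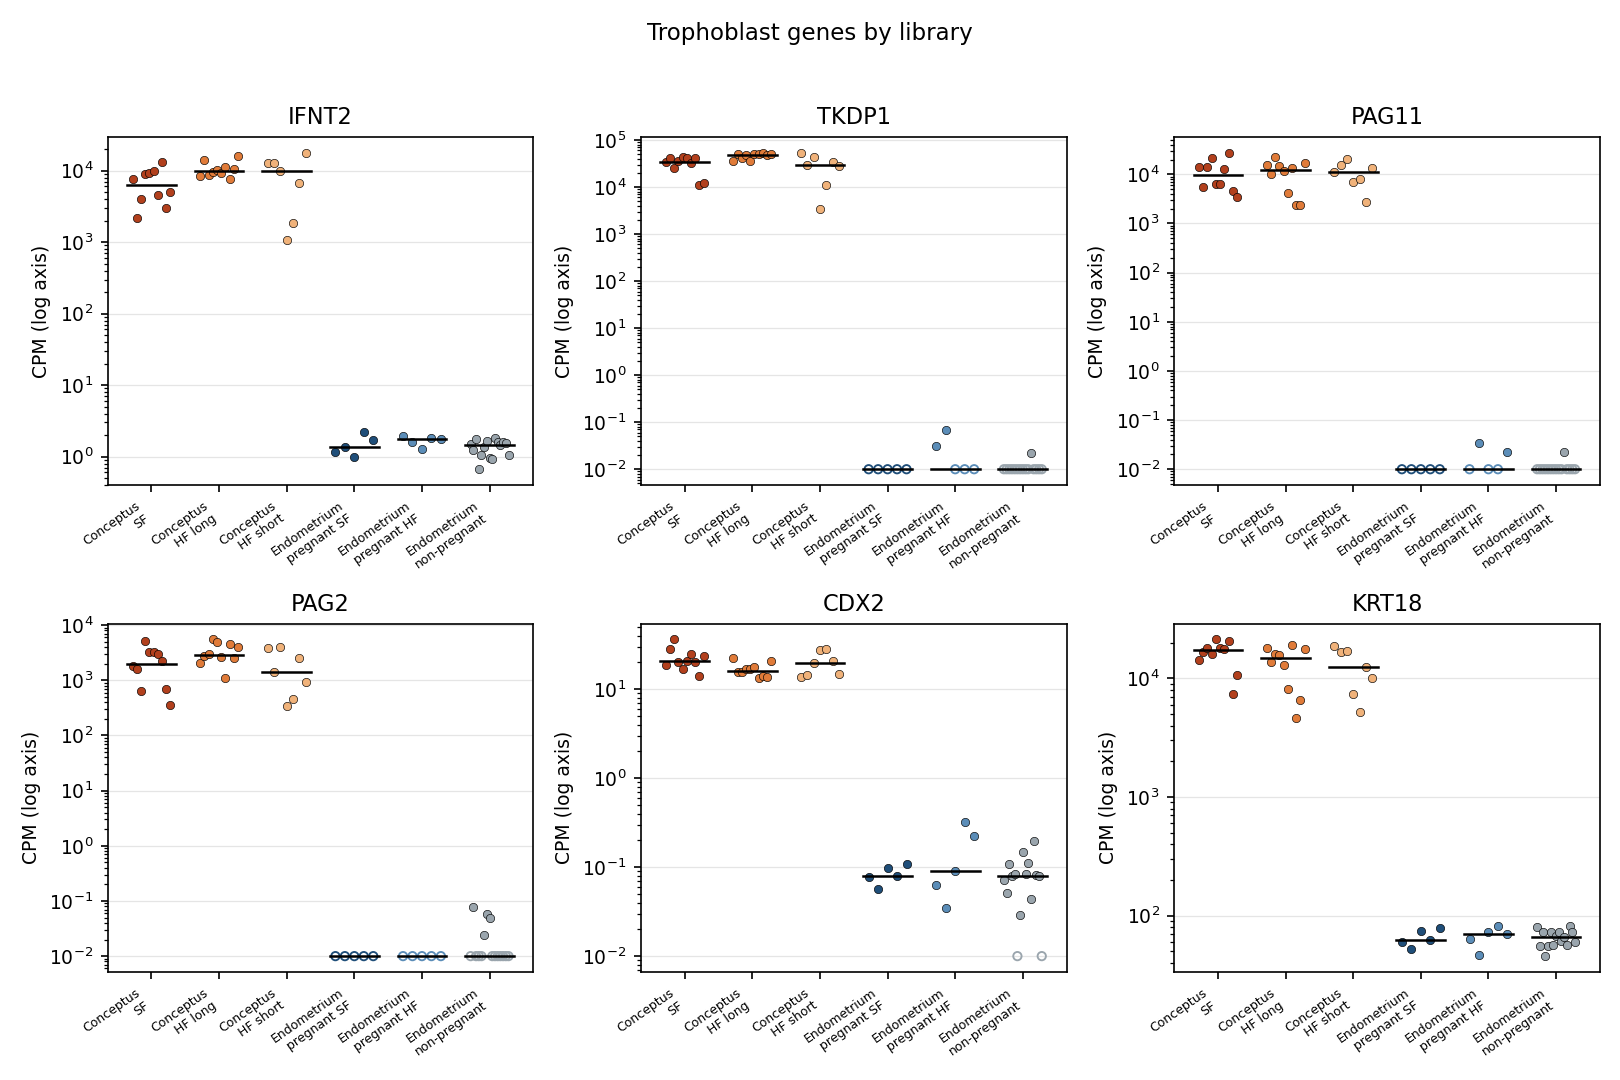
CPM on a log axis for IFNT2, TKDP1, PAG11, PAG2, CDX2 and KRT18, with 1 point per library in the 6 groups on the x axis; black bars are group medians and open circles are libraries at 0 CPM. All 27 conceptuses lie above all pregnant and non-pregnant endometria for each gene, and the spread among conceptuses is widest in the secreted products.

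Lineage transcription factors and keratins of trophectoderm followed. Of 29 tested genes on that list 15 were large and consistent higher and none lower, 21 were called higher and 5 lower, and the median was 3.77. CDX2, a factor of trophectoderm identity, ran from 13.3 to 36.3 CPM in conceptuses and from 0.0346 to 0.325 CPM in endometria, with a log2 fold change of 7.38 ± 0.26. ASCL2, a factor of trophoblast progenitors that is imprinted in other mammals, ran from 20.9 to 218 CPM against 0 to 0.245 CPM (9.39 ± 0.52). HAND1, a factor of trophoblast and extraembryonic mesoderm, ran from 1.51 to 248 CPM with a median of 19.01 CPM against at most 0.0843 CPM (10.54 ± 1.04). Its highest conceptus was 164 times its lowest, so HAND1 separated the tissues while differing strongly between conceptuses.

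The keratins of simple epithelium were far higher in the conceptus although the endometrium is also lined by epithelium. KRT18 ran from 4610 to 21310 CPM against 46.3 to 82.2 CPM, a log2 fold change of 7.71 ± 0.30. KRT8, its filament partner, ran from 5407 to 17701 CPM against 57.6 to 97.6 CPM (7.26 ± 0.22), and KRT19 from 1314 to 4698 CPM against 25.5 to 43.8 CPM (6.38 ± 0.25). The wider list of epithelial genes was mixed, with 7 of 32 large and consistent higher and 4 lower, and a median of 1.18 that shrank to 0.14 with library totals alone. The tight junction claudins went both ways. CLDN6, a claudin of embryonic epithelia, was at 516 to 1054 CPM in conceptuses and 0 to 0.999 CPM in endometria (10.77 ± 0.30). CLDN8 was at 60.7 to 235 CPM in endometria and 0 to 3.08 CPM in conceptuses (−7.69 ± 0.41). The factor GRHL1, a regulator of epithelial barriers, was at 126 to 324 CPM in conceptuses against 4.99 to 10.6 CPM (4.70 ± 0.16).

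Genes of the epiblast, the layer that forms the embryo proper, were mostly higher in the conceptus. Of 22 listed genes 13 were tested, 9 were large and consistent higher, none was lower at that size, and the median was 6.76. Their sum ran from 307 to 774 CPM in conceptuses, 22.5 to 181 CPM in pregnant and 34.5 to 603 CPM in non-pregnant endometria. Most of the endometrial sum was TDGF1, a co-receptor of Nodal, at 18.9 to 179 CPM in pregnant endometria against 3.21 to 157 CPM in conceptuses. TDGF1 was the 1 member called lower (−0.86 ± 0.36), a call lost without P-SF replicate 4 (−0.73), P-HF replicate 4 (−0.78) or P-HF replicate 5 (−0.66), and it stood at 0.31 with SF conceptuses alone. LIN28A, an RNA-binding protein that blocks let-7 maturation, ran from 36.6 to 103 CPM in conceptuses and had 3 reads over the 10 endometria, a 9972-fold ratio with a 95% counting interval of 3412 to 48354. Its relative LIN28B ran from 12.04 to 81.6 CPM against at most 0.0499 CPM (11.23 ± 0.43). TRIM71, a let-7 target and stem cell gene, ran from 77.6 to 160 CPM against at most 0.111 CPM (10.89 ± 0.19). SALL4, a stem cell zinc finger factor, ran from 46.8 to 110 CPM against at most 0.156 CPM (10.12 ± 0.29). DNMT3B, a de novo DNA methyltransferase, ran from 57.7 to 194 CPM against 1.98 to 3.28 CPM (5.08 ± 0.17), and DPPA4 from 1.98 to 52.2 CPM against at most 0.219 CPM (7.49 ± 0.42). Among the core pluripotency factors, POU5F1 ran from 0.197 to 21.3 CPM in conceptuses, NANOG from 0 to 6.69 CPM, and SOX2 from 0 to 2.12 CPM against 0 to 0.512 CPM in endometria. The log2 fold change of SOX2 was −0.68 and was not called, and with library totals alone SOX2 was called lower (−1.65).

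Endoderm genes split by member. Of 36 tested genes of primitive and visceral endoderm, the yolk sac layer that makes plasma proteins, 13 were large and consistent higher and 3 lower, with a median of 3.78. With library totals alone those counts were 8 and 5. Among the secreted products APOA1, the main protein of high-density lipoprotein, ran from 381 to 2863 CPM against 9.02 to 31.2 CPM (6.09 ± 0.30). The plasma glycoprotein gene AHSG ran from 9.58 to 1399 CPM against 0.0511 to 0.588 CPM (9.90 ± 0.98). APOH reached 14.7 CPM and the fibrinogen chain FGA 38.3 CPM, against at most 0.128 and 0.0731 CPM in endometria. MTTP, which loads lipid onto lipoproteins, ran from 3.61 to 25.5 CPM against at most 0.230 CPM (6.71 ± 0.36). FOXA1, a pioneer factor of endoderm, ran from 3.45 to 11.3 CPM against at most 0.223 CPM (5.50 ± 0.22). Among those that were lower was the transcription factor HNF4G, with a log2 fold change of −3.11 ± 0.19.

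More mesoderm genes were endometrial than not. Of 14 tested, 8 were called lower and 3 higher, 6 were large and consistent lower in the conceptus and 2 higher, with a median of −1.43. The haematopoietic and vascular factors LMO2 and TAL1 were at 50.4 to 71.7 and 8.15 to 13.9 CPM in endometria and at most 2.42 and 0.351 CPM in conceptuses. The mesenchymal factors FOXF1, HAND2 and SNAI2 differed by −6.29 ± 0.42, −6.16 ± 0.35 and −5.83 ± 0.56. Of those that were higher in conceptuses, the homeobox factor ISL1 was at 0.346 to 2.38 CPM against at most 0.0487 CPM (5.65 ± 0.45).

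Secreted ligands and cell surface receptors were arranged in 17 signalling groups. Of 113 tested ligands 9 were large and consistent higher in the conceptus and 41 lower, with a median of −2.17. Of 116 tested receptors 2 were higher at that size and 42 lower, with a median of −2.20. The 2 receptors were FGFR3 and FZD10. Both medians stood below the all-gene median of −0.34.

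**Figure D4:**
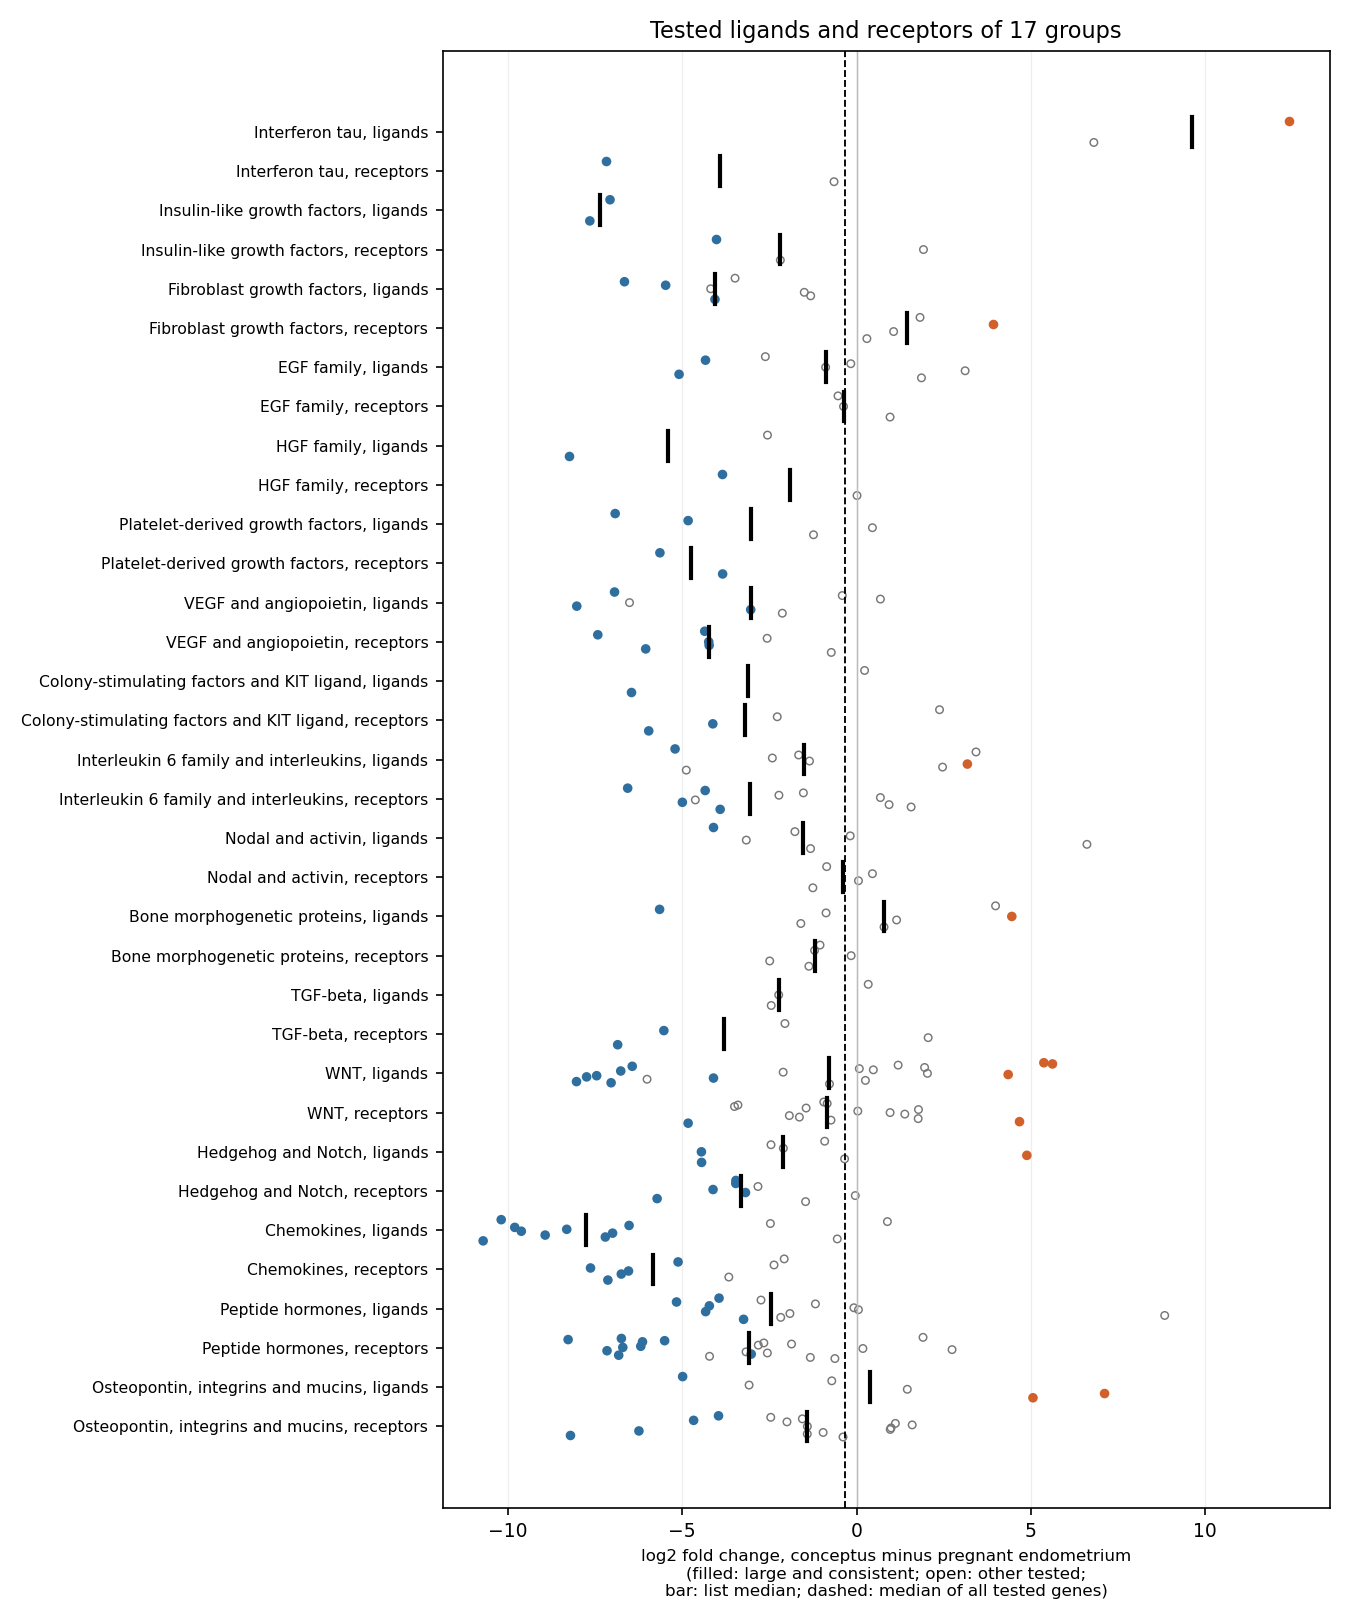
Tested ligands and receptors of 17 signalling groups, each point 1 gene placed by its log2 fold change of conceptus minus pregnant endometrium (x axis). Filled points were large and consistent, open points were not, black bars mark medians and the dashed line marks −0.34. Chemokines and vascular receptors lie far to the left, while WNT ligands spread to both sides.

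The insulin-like growth factors, which drive growth of placenta and fetus, were endometrial. IGF2 ran from 190 to 372 CPM in pregnant endometria (median 263) and from 0.314 to 9.04 CPM in conceptuses (median 1.73), a log2 fold change of −7.07 ± 0.31. IGF1 ran from 12.1 to 66.2 CPM against 0 to 1.67 CPM (−7.65 ± 0.50, or −8.76 without the 5). Neither range overlapped. Of the receptors, IGF1R, which signals for both, had a median of 12.3 CPM in conceptuses and 62.4 CPM in endometria (−2.18 ± 0.26). IGF2R, which clears IGF2, had medians of 124 and 33.5 CPM (1.92 ± 0.15, or 0.90 with library totals alone). INSR, the insulin receptor, had medians of 2.63 and 89.7 CPM (−4.03 ± 0.40). Conceptus INSR reached 25.8 CPM in the 5 libraries with the most EMX2 plus PAX2 and 13.3 CPM in the other 22. Without the 5 its fold change was −4.62.

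Fibroblast growth factors had endometrial ligands and receptors on both sides. All 7 tested ligands were called lower in the conceptus, and 3 of them were large and consistent. FGF2 ran from 33.5 to 58.1 CPM in endometria and from 0.172 to 2.91 CPM in conceptuses (−5.47 ± 0.24), and FGF1 from 3.30 to 7.98 CPM against 0 to 1.66 CPM (−4.06 ± 0.56, or −5.00 without the 5). Among their receptors FGFR3 was the 1 that was large and consistent, at 9.11 to 74.4 CPM in conceptuses against 1.38 to 3.16 CPM (3.92 ± 0.28), though with library totals alone it fell just short of 8-fold at 2.88. FGFR2 had medians of 42.4 and 27.0 CPM (1.06 ± 0.25) and was not called with library totals alone (0.03). FGFR4 had medians of 1.17 and 0.401 CPM. FGFR1 had medians of 9.46 and 8.15 CPM, a log2 difference of 0.30 ± 0.19 that missed the threshold and became −0.74 with library totals alone.

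Ligands of the epidermal growth factor family went both ways. Of 7 tested, 4 were called lower in the conceptus, 2 of them large and consistent, and 2 were called higher, namely EGF (3.11 ± 0.85) and AREG (1.86 ± 0.39), with overlapping ranges. BTC, or betacellulin, ran from 9.67 to 16.4 CPM in endometria against 0 to 3.49 CPM (−5.09 ± 0.59, or −6.98 without the 5), and the neuregulin NRG1 from 2.73 to 10.46 CPM against 0 to 2.02 CPM (−4.33 ± 0.46). Their receptors were expressed on both sides with overlapping ranges. EGFR had medians of 81.7 CPM in conceptuses and 47.2 CPM in endometria (0.96 ± 0.13, turning to −0.06 with library totals alone). ERBB2 and ERBB3 had medians of 106 and 190 CPM in conceptuses and 151 and 325 CPM in endometria. The call of ERBB2 (−0.37) was lost with the heifer as a block (−0.26, adjusted p = 0.110, edgeR's quasi-likelihood test). ERBB4 had 16 reads over all conceptuses and 52 over all endometria and was not tested.

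Hepatocyte growth factor, a stromal product that moves epithelium, ran from 8.33 to 13.3 CPM in endometria and from 0 to 0.172 CPM in conceptuses (HGF, −8.23 ± 0.39). Its receptor MET had medians of 172 CPM in conceptuses and 183 CPM in endometria, a difference of 0.01 ± 0.16 (adjusted p = 0.934, edgeR's quasi-likelihood test, Benjamini-Hochberg) that became −1.01 with library totals alone. The related receptor MST1R was at 10.3 to 40.7 CPM in endometria and 0.166 to 5.27 CPM in conceptuses (−3.85 ± 0.33). Of the platelet-derived growth factors, which act on mesenchyme, 2 of 4 tested ligands and both receptors were large and consistent lower in the conceptus. PDGFC and PDGFD had endometrial medians of 27.3 and 13.3 CPM and conceptus medians of 0.367 and 0.0937 CPM. PDGFA differed by −1.23 ± 0.10, and PDGFB by 0.46 ± 0.23, which was not called. PDGFB was called lower with library totals alone (−0.58). It was called higher with the heifer as a block (0.38, adjusted p = 0.0167, edgeR's quasi-likelihood test). PDGFRB ran from 50.2 to 90.9 CPM against 0.272 to 5.40 CPM (−5.64 ± 0.27). PDGFRA ran from 143 to 238 CPM against 1.40 to 107 CPM (−3.84 ± 0.45), so its ranges stood close.

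Of 14 tested ligands and receptors of vascular signalling 8 were large and consistent lower in the conceptus, none was higher at that size, and 13 were called lower. TEK, the receptor of angiopoietins, ran from 27.3 to 57.8 CPM in endometria and from 0 to 0.978 CPM in conceptuses (−7.42 ± 0.44). Its ligand ANGPT2 ran from 7.58 to 15.2 CPM against 0.377 to 4.92 CPM (−3.03 ± 0.26), which fell short of 8-fold without P-HF replicate 3 (−2.98) and under 4 other settings. The co-receptors TIE1 and NRP1 differed by −4.35 ± 0.31 and −4.24 ± 0.36. KDR, the main receptor of vascular endothelial growth factor, ran from 83.3 to 147 CPM in endometria. In the 5 conceptus libraries with the most EMX2 plus PAX2 it ran from 1.73 to 71.7 CPM. In the other 22 it ran from 0.220 to 7.87 CPM. The fold change was −4.23 ± 0.59 over all libraries and −5.86 without the 5. The receptors FLT1, FLT4 and NRP2 had medians of 13.7, 0 and 1.48 CPM in conceptuses and 29.6, 1.001 and 11.3 CPM in endometria.

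Receptors of cytokines and colony-stimulating factors were mostly lower in the conceptus, with 10 of 14 tested called lower and 2 higher. At the larger size 6 were lower and none higher. CSF1, the macrophage growth factor, ran from 23.7 to 45.4 CPM in endometria against 0.0294 to 1.38 CPM (−6.46 ± 0.37, or −7.15 without the 5), and its receptor CSF1R from 14.8 to 28.2 CPM against 0 to 1.23 CPM (−5.96 ± 0.35). KIT, the stem cell factor receptor, had medians of 94.7 CPM in conceptuses and 16.5 CPM in endometria. LIFR, the receptor of leukemia inhibitory factor, ran from 343 to 661 CPM in endometria. In the 5 conceptus libraries with the most EMX2 plus PAX2 it ran from 13.4 to 269 CPM. In the other 22 it ran from 0.779 to 29.7 CPM. The fold change was −4.34 ± 0.63 over all libraries and −6.00 without the 5. The oncostatin M receptor OSMR had medians of 0.187 and 43.5 CPM (−6.56 ± 0.49, or −8.06 without the 5), IL1R1 of 0.724 and 25.3 CPM (−4.99 ± 0.28), and IL10RA of 0.335 and 7.31 CPM (−3.91 ± 0.31). The shared chain IL6ST was present in both, with medians of 93.7 and 327 CPM.

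Of the 8 tested ligands among the interleukins and the interleukin 6 family, IL18 was the 1 that was large and consistent higher in the conceptus. It ran from 13.47 to 261 CPM (median 69.7) against 6.29 to 10.42 CPM (3.18 ± 0.31). It fell short of 8-fold under 5 settings, at 2.14 with library totals alone and 2.96 with DESeq2. Its receptor chain IL18R1 had medians of 1.89 CPM in conceptuses and 2.12 CPM in endometria, with no difference called over all libraries. It was called higher with long HF conceptuses alone (2.28) and with short HF conceptuses alone (1.42). The 20 libraries of the heifers with both tissues, fitted without a block, also called it higher (1.34).

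In the transforming growth factor superfamily the bone morphogenetic protein BMP7 was the conceptus ligand, at 10.7 to 49.1 CPM against 0.401 to 1.47 CPM (4.45 ± 0.21). Its receptors were shared. BMPR1A had medians of 60.4 CPM in conceptuses and 64.7 CPM in endometria with no difference called. BMPR1B, BMPR2, ACVR1 and ACVRL1 had conceptus medians of 5.22, 39.7, 11.9 and 4.45 CPM and endometrial medians of 17.9, 94.0, 34.1 and 30.2 CPM. Myostatin (MSTN), an inhibitor of muscle growth, was endometrial at 4.36 to 8.09 CPM against 0 to 2.93 CPM (−4.12 ± 0.55, or −5.53 without the 5). The 2 signalling receptors of TGF-beta went opposite ways. TGFBR2 ran from 133 to 172 CPM in endometria and from 0.503 to 11.3 CPM in conceptuses (−5.52 ± 0.40), while TGFBR1 had medians of 47.6 CPM in endometria and 185 CPM in conceptuses (2.05 ± 0.14, or 1.005 with library totals alone). The endothelial co-receptor ENG was at 18.5 to 29.6 CPM against 0 to 0.450 CPM (−6.85 ± 0.23), and TGFBR3 had medians of 71.7 CPM in conceptuses and 279 CPM in endometria.

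WNT ligands divided between the tissues. Of 11 tested WNT genes, 3 were large and consistent higher in the conceptus and 2 lower. Of 8 tested secreted modulators (DKK and SFRP antagonists and R-spondins), 5 were lower at that size and none higher, namely DKK3, SFRP1, SFRP2, SFRP4 and RSPO1. WNT6 ran from 24.4 to 79.0 CPM in conceptuses against 0.450 to 2.02 CPM (5.62 ± 0.22), and WNT7A from 3.54 to 18.4 CPM against 0.0527 to 0.624 CPM (5.37 ± 0.29). The other was WNT10A, at 1.51 to 12.03 CPM against at most 0.358 CPM (4.35 ± 0.36). On the endometrial side WNT5A, a ligand that acts outside the beta-catenin route, ran from 138 to 230 CPM against 0.145 to 12.8 CPM (−6.43 ± 0.50, or −7.75 without the 5), and WNT2 from 4.62 to 10.6 CPM against at most 0.450 CPM (−6.76 ± 0.43). The secreted antagonists SFRP2 and DKK3 had endometrial medians of 34.5 and 31.4 CPM and conceptus medians of 0.0882 and 0.181 CPM.

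The Frizzled receptors differed in the same gene-by-gene way. FZD10 ran from 16.3 to 117 CPM in conceptuses against 0.793 to 2.82 CPM (4.67 ± 0.31), and FZD1 from 50.4 to 74.9 CPM in endometria against 0.588 to 12.5 CPM (−4.83 ± 0.35, or −5.59 without the 5). The other Frizzled receptors had conceptus and endometrial medians of 1.47 and 2.43 CPM for FZD2, 17.5 and 5.10 for FZD3, 8.71 and 28.2 for FZD4, 57.9 and 232 for FZD5, 67.3 and 27.1 for FZD6, 7.07 and 3.90 for FZD7, 1.82 and 1.86 for FZD8, and 0.367 and 0.136 for FZD9. With library totals alone FZD7 and FZD8 turned to −0.05 and −0.98, and with the heifer as a block FZD7 lost its call (0.49, adjusted p = 0.0732, edgeR's quasi-likelihood test). The co-receptors LRP5 and LRP6 had medians of 13.6 and 70.2 CPM in conceptuses and 31.6 and 144 CPM in endometria. LGR4 and LGR5, receptors of the R-spondins, had medians of 59.3 and 1.38 CPM in conceptuses and 172 and 24.1 CPM in endometria.

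Notch and hedgehog receptors were mostly lower in the conceptus. Of 8 tested, 7 were called lower, 5 were large and consistent lower and none higher. NOTCH1 ran from 33.1 to 52.2 CPM in endometria against 0 to 7.31 CPM (−5.72 ± 0.45), and NOTCH4 from 13.6 to 27.8 CPM against 0.434 to 2.74 CPM (−4.11 ± 0.17). NOTCH3, known from pericytes and smooth muscle, differed by −3.18 ± 0.26. NOTCH2 had medians of 155 CPM in conceptuses and 210 CPM in endometria, a difference of −0.04 that was not called. The ligand DLL4, known from vessels, ran from 15.3 to 30.6 CPM in endometria against 0.0629 to 6.19 CPM (−4.45 ± 0.40, or −5.30 without the 5), and DLL3 was the conceptus ligand at 1.97 to 7.46 CPM against at most 0.361 CPM (4.88 ± 0.28). The hedgehog transducer SMO differed by −3.46 ± 0.27.

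No chemokine or chemokine receptor was called higher in the conceptus, and 18 of 20 tested were called lower. Of 12 tested ligands 9 were large and consistent lower in the conceptus, and of 8 tested receptors 5 were (CXCR4, CCR2, CCR7, ACKR3 and CX3CR1), with none higher. CXCL12, a chemokine of stroma and vessels, ran from 66.6 to 121 CPM in endometria against 0 to 1.12 CPM (−9.80 ± 0.36), and its receptor CXCR4 from 15.8 to 31.9 CPM against 0.0829 to 3.27 CPM (−5.12 ± 0.44, or −6.06 without the 5). CCL14 ran from 3.27 to 14.95 CPM in endometria and had 1 read over all 27 conceptuses, a 6648-fold ratio with a 95% counting interval of 1193 to 262594. CCL8 ran from 5.93 to 14.8 CPM against at most 0.197 CPM, and from 0.203 to 1.31 CPM in non-pregnant endometria. The fractalkine receptor CX3CR1 ran from 3.47 to 9.19 CPM against at most 0.213 CPM (−7.63 ± 0.44, or −8.78 without the 5).

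Of the peptide hormones GRP, a neuropeptide that uterine glands secrete, was at 862 to 1559 CPM in pregnant endometria. Conceptus libraries ranged from 0.715 to 781 CPM. The 5 libraries with the most EMX2 plus PAX2 held 37.1 to 781 CPM and the other 22 held 0.715 to 43.3 CPM. The log2 fold change was −4.22 ± 0.76 over all libraries and −6.58 without the 5. Its receptor GRPR had 4 reads over all conceptuses and 22 over all endometria and was not tested. Among the receptors LEPR, for leptin, had an endometrial median of 23.7 CPM against 0.0588 CPM (−7.15 ± 0.54, or −9.23 without the 5), and EDNRA, for endothelin, of 6.31 CPM against 0 (−6.82 ± 0.47, or −7.73 without the 5). NPR2, for C-type natriuretic peptide, had medians of 18.2 and 0.126 CPM (−6.70 ± 0.32). The accessory proteins RAMP2 and RAMP3, which shape the adrenomedullin receptor, differed by −5.50 ± 0.24 and −8.27 ± 0.60.

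Matrix ligands and the integrins that bind them pointed both ways. Fibronectin (FN1) ran from 1466 to 7646 CPM in conceptuses against 61.9 to 133 CPM (5.06 ± 0.24), and the laminin chain LAMA1, a basement membrane component, from 159 to 764 CPM against 0.425 to 3.60 CPM (7.11 ± 0.28). Tenascin (TNC) was endometrial at 5.57 to 14.9 CPM against 0 to 1.31 CPM (−4.99 ± 0.42). Of 15 tested integrins and related receptors 10 were called lower and 4 higher, and 4 were large and consistent lower and none higher. ITGA1, a collagen-binding chain, ran from 26.8 to 42.5 CPM in endometria against at most 0.373 CPM (−8.20 ± 0.40), ITGB4 from 109 to 203 CPM against 0.550 to 28.7 CPM (−4.67 ± 0.43, or −5.57 without the 5), and ITGA4 from 3.24 to 7.48 CPM against at most 1.09 CPM (−6.24 ± 0.54, or −8.25 without the 5). The other was ITGB8. The chains of the fibronectin receptors were present in conceptuses, with medians of 94.5 CPM for ITGA5, 276 CPM for ITGAV and 762 CPM for ITGB1, against 52.6, 94.2 and 346 CPM in endometria. Their log2 fold changes of 0.97, 1.60 and 1.11 became −0.04, 0.56 and 0.07 with library totals alone. ITGA6, a laminin-binding chain, had medians of 429 and 238 CPM (0.99, or −0.05 with library totals alone).

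Hormone receptors were mostly lower in the conceptus, with 20 of 26 tested members called lower and 5 higher, 10 large and consistent lower, none higher, and a median of −2.69. The estrogen receptor ESR2 ran from 37.5 to 60.9 CPM in endometria against 0 to 1.81 CPM (−6.46 ± 0.31), and ESR1 from 2.95 to 5.34 CPM against 0 to 1.35 CPM (−4.03 ± 0.58, or −5.70 without the 5). PGR, the progesterone receptor, ran from 2.19 to 6.68 CPM against 0 to 0.997 CPM (−4.04 ± 0.41). The glucocorticoid receptor NR3C1 ran from 36.1 to 55.0 CPM against 1.49 to 13.9 CPM (−3.43 ± 0.23). The lipid sensor PPARA had medians of 76.4 and 0.783 CPM (−4.97 ± 0.63, or −6.96 without the 5), and the thyroid hormone receptor THRB of 7.65 and 0.0937 CPM (−5.52 ± 0.50, or −6.92 without the 5). The oxytocin receptor OXTR was called lower but overlapped, at 1.90 to 5.79 CPM in endometria. OXTR was at 0.320 to 21.1 CPM in the 5 conceptus libraries with the most EMX2 plus PAX2 and 0 to 1.83 CPM in the other 22. Its difference was −2.82 ± 0.59 over all libraries, −3.98 without the 5, and 0.20 and not called with SF conceptuses alone.

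Genes of uterine secretion and patterning formed a mixed list. Of 42 tested, 17 were large and consistent lower in the conceptus and 5 higher, with a median of −3.05, and without the 5 libraries named above 21 were lower. HOXA10 and HOXA11, which pattern the uterus, ran from 22.8 to 47.0 and 30.0 to 54.6 CPM in endometria against at most 0.317 and 0.226 CPM, log2 fold changes of −9.31 ± 0.38 (−10.03 without the 5) and −9.86 ± 0.33. The mucin MUC16 was called lower, at 20.2 to 97.1 CPM in endometria, 30.0 to 147 CPM in the 5 conceptus libraries and 0.434 to 22.3 CPM in the other 22, with a fold change of −1.80 ± 0.67 that became −3.72 without the 5. IGFBP1, an IGF-binding secretion, was at 22.5 to 226 CPM in endometria, 0.615 to 145 CPM in the 5 libraries and 0 to 8.84 CPM in the other 22, and its fold change went from −3.97 ± 0.78 to −6.56 without the 5. Among the 5 members that were higher in the conceptus were the cathepsin CTSL, a lysosomal protease, at 386 to 4337 CPM against 0.439 to 7.03 CPM (8.56 ± 0.55), and the galectin LGALS3 at 371 to 2414 CPM against 18.8 to 47.0 CPM (4.60 ± 0.22). The others were ENPEP, WNT7A and TKDP1.

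**Figure D5:**
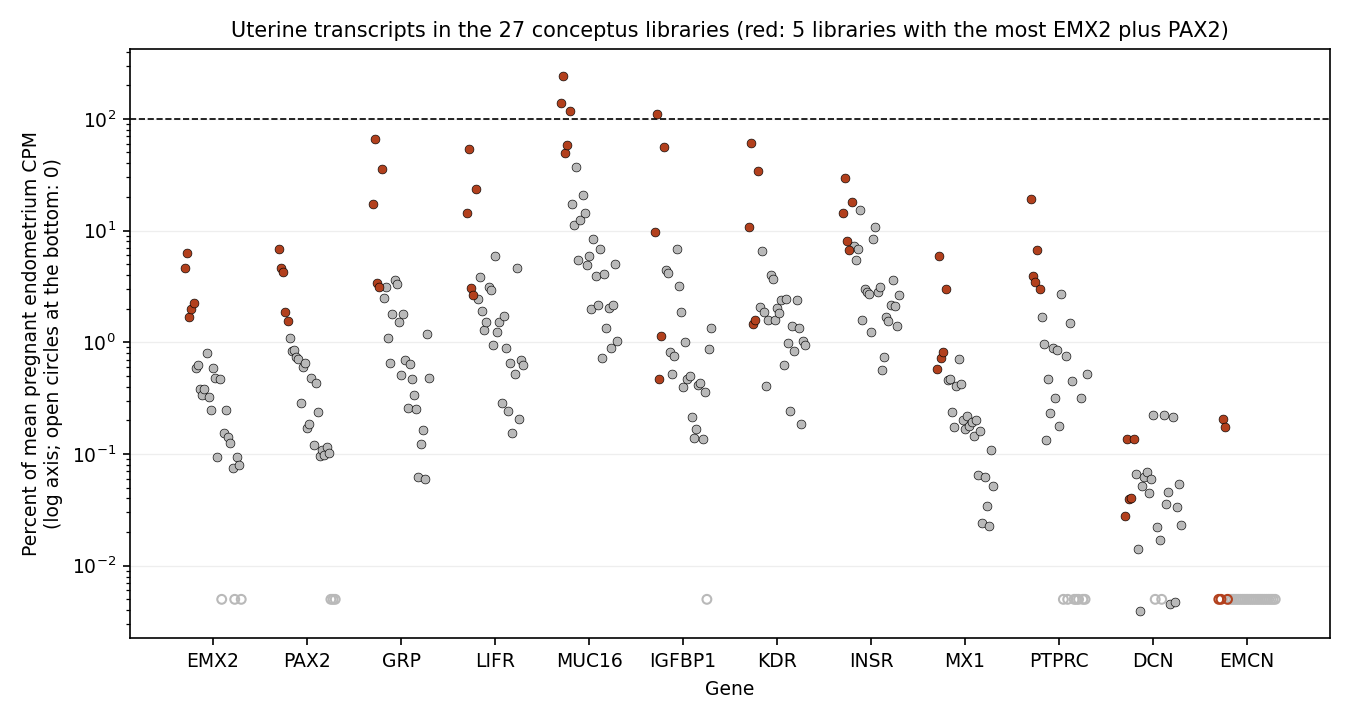
Levels of 12 endometrial genes in the 27 conceptus libraries, as a percentage of the mean of the 10 pregnant endometria (log y axis; the dashed line marks 100% and open circles mark 0). Within each gene the libraries are ordered by falling EMX2 plus PAX2; the 5 red points reach 65.7% for GRP and 242% for MUC16 but at most 0.137% for the stromal gene DCN.

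Nutrient transporters had a conceptus side and an endometrial side. Of 38 tested, 8 were large and consistent higher and 3 lower, with a median of 0.95 that became −0.05 with library totals alone. SLC2A3, a high-affinity glucose transporter, ran from 1273 to 5110 CPM in conceptuses against 9.66 to 22.1 CPM (7.64 ± 0.24). The fructose transporter SLC2A5 ran from 23.4 to 86.4 CPM against 0.0527 to 0.300 CPM (8.58 ± 0.27). SLC2A2 ran from 1.09 to 60.3 CPM against at most 0.0452 CPM (9.12 ± 0.54), and SLC2A10 from 5.68 to 26.1 CPM against 0.437 to 1.19 CPM (4.23 ± 0.23). SLC16A1, which carries lactate and other monocarboxylates, ran from 476 to 1049 CPM against 9.65 to 33.2 CPM (5.36 ± 0.21). SLC38A4, an amino acid carrier, was endometrial at 3.65 to 18.2 CPM against at most 0.718 CPM (−7.22 ± 0.49). The widely expressed glucose transporter SLC2A1 overlapped, at 189 to 715 CPM in conceptuses and 136 to 439 CPM in endometria, and its difference of 0.81 turned to −0.22 with library totals alone.

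Prostaglandin and steroid genes also split, with 9 of 36 tested large and consistent higher and 11 lower, and a median of −0.32 beside −0.34 for all genes. Aromatase (CYP19A1), which makes estrogen, ran from 1.51 to 198 CPM in conceptuses (median 49.9) against 0 to 0.184 CPM (10.81 ± 0.89). HSD17B1, which reduces estrone to estradiol, ran from 5.72 to 1077 CPM against 0.890 to 3.22 CPM (7.70 ± 0.73). AKR1B1, a prostaglandin F synthase, ran from 705 to 5379 CPM against 56.4 to 126 CPM (4.79 ± 0.33). On the endometrial side HPGD, which inactivates prostaglandins, ran from 264 to 406 CPM against 0.332 to 14.6 CPM (−6.62 ± 0.29). HSD11B2, which inactivates cortisol, ran from 9.76 to 30.2 CPM against 0 to 0.731 CPM (−6.94 ± 0.40), and the steroid reductase AKR1C4 from 4.08 to 30.4 CPM against at most 0.431 CPM (−7.85 ± 0.39). The prostaglandin F receptor PTGFR had medians of 6.33 CPM in conceptuses and 0.198 CPM in endometria, but its ranges overlapped.

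Major histocompatibility genes, which present antigen, were lower in the conceptus without exception. All 22 tested members were called lower and 16 were large and consistent lower, with a median of −7.07. Their summed level ran from 81.0 to 418 CPM in conceptuses and from 1816 to 3542 CPM in pregnant endometria. The class I gene listed as BOLA ran from 69.5 to 377 CPM in endometria against 0.0430 to 9.44 CPM (−7.60 ± 0.47, or −8.57 without the 5). In class II, BOLA-DRA ran from 122 to 226 CPM against 0 to 5.45 CPM (−8.11 ± 0.51, or −9.46 without the 5), BOLA-DRB3 from 56.3 to 106 CPM against 0 to 3.56 CPM (−7.93 ± 0.49, or −9.26 without the 5), and the invariant chain CD74 from 205 to 406 CPM against 0 to 5.15 CPM (−8.19 ± 0.45, or −9.25 without the 5). BOLA-DQA5 and BOLA-DQB varied strongly between endometria, at 0.890 to 32.9 and 1.42 to 28.2 CPM, against at most 0.258 and 0.631 CPM in conceptuses. The transporter TAP1 and the light chain B2M were called lower but not large and consistent, at −0.67 ± 0.25 and −2.64 ± 0.18, and TAP1 was at 0.19 with SF conceptuses alone. The genes of this family are polymorphic close copies, so the assignment of their reads is uncertain.

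Stromal markers were low in the conceptus. Of 20 stromal markers 18 were large and consistent lower, with a median of −6.36, and their sum ran from 117 to 478 CPM in conceptuses and from 3868 to 9089 CPM in endometria. The proteoglycan DCN ran from 1343 to 2029 CPM in endometria against 0 to 3.66 CPM (−10.86 ± 0.41), and LUM from 123 to 223 CPM against 0 to 2.88 CPM (−8.61 ± 0.43). The collagen chains COL3A1, COL1A2, COL6A1 and COL6A2 differed by −9.72 ± 0.63, −8.97 ± 0.59, −10.07 ± 0.33 and −8.61 ± 0.35. The 1 that was higher in the conceptus was NT5E, an ecto-nucleotidase, at 4.48 to 137 CPM against 1.97 to 3.58 CPM (3.08 ± 0.46). That size fell under 8-fold with DESeq2 (2.86), limma-voom (2.65), upper-quartile scaling (2.81) and library totals alone (2.02). It was also under 8-fold with long HF conceptuses alone (2.71) and with short HF conceptuses alone (2.56).

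Of 14 endothelial markers 11 were large and consistent lower, and all 14 were called lower. EMCN ran from 24.0 to 53.7 CPM in endometria against at most 0.0769 CPM (−12.40 ± 0.31, or −13.12 without the 5), and the vascular cadherin CDH5 from 9.26 to 19.3 CPM against at most 0.187 CPM (−9.88 ± 0.40). CLDN5 and the factor ERG differed by −7.83 ± 0.41 and −10.10 ± 0.35. Their summed list ran from 9.99 to 87.5 CPM in conceptuses and from 274 to 533 CPM in endometria. Of 13 smooth muscle and pericyte markers 6 were large and consistent lower, namely NOTCH3 given above, RGS5 (−10.95 ± 0.34), MYH11 (−4.08 ± 0.25), LMOD1 (−4.61 ± 0.28), DES (−4.19 ± 0.47) and MCAM (−4.06 ± 0.19). Their sum overlapped, at 113 to 500 CPM in conceptuses and 316 to 695 CPM in endometria.

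Of 33 tested immune markers 22 were large and consistent lower, with a median of −5.30. The complement genes C1QA, C1QB and C1QC, made by macrophages, differed by −9.78 ± 0.45, −10.33 ± 0.40 and −10.09 ± 0.39 (C1QA −10.39 and C1QB −12.16 without the 5), and CD163 by −9.39 ± 0.52 (−10.33 without the 5). The T cell genes CD3E and CD4 differed by −6.32 ± 0.50 (−7.19 without the 5) and −6.64 ± 0.43. The summed list overlapped, at 71.7 to 200 CPM in conceptuses and 191 to 360 CPM in endometria, and its members include KIT, which was higher in the conceptus. Of 14 tested markers of ciliated cells 12 were large and consistent lower. FOXJ1, the master factor of motile cilia, ran from 7.14 to 46.6 CPM in endometria against 0 to 1.57 CPM (−7.85 ± 0.40), and DNAH5, DNAH9, CFAP52, RSPH1 and TEKT1 differed by −7.61, −7.23, −7.66, −7.55 and −7.93 (CFAP52 −8.62 and TEKT1 −10.04 without the 5). TUBB4B, a beta-tubulin, was higher in the conceptus (3.12 ± 0.14), though under 8-fold with DESeq2 (2.91), upper-quartile scaling (2.85) and library totals alone (2.08). It ran from 264 to 740 CPM in conceptuses against 44.2 to 76.4 CPM, and with it the summed ciliated list overlapped, at 270 to 743 CPM in conceptuses and 126 to 458 CPM in endometria. Of 4 tested red cell genes ALAS2, the haem synthesis enzyme of red cell precursors, was higher in the conceptus at 0.471 to 124 CPM against at most 0.134 CPM (8.46 ± 1.201), while haemoglobin HBA was called lower.

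Cell cycle genes were higher in the conceptus throughout. All 28 tested members were called higher and 22 were large and consistent, with a median of 5.20, and their sum ran from 3660 to 5458 CPM in conceptuses and from 214 to 276 CPM in endometria. TOP2A, the topoisomerase of dividing cells, ran from 409 to 753 CPM against 1.29 to 3.17 CPM (8.15 ± 0.18). RRM2, which makes deoxynucleotides, ran from 280 to 763 CPM against 0.500 to 2.25 CPM (8.42 ± 0.25). The mitotic genes CDC20, BUB1B and BIRC5 and the replication licensing gene CDC6 differed by 8.18 ± 0.23, 8.02 ± 0.20, 7.55 ± 0.18 and 7.35 ± 0.21. Among the 27 conceptuses the coefficient of variation of these 22 genes had a median of 18.9%, beside 38.3% for all members higher in the conceptus. It ran from 10.9% for BUB1 to 45.3% for the proliferation marker MKI67, which was at 60.5 to 342 CPM.

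Of 18 tested imprinted growth genes ASCL2 was large and consistent higher and 4 were lower, namely IGF2 given above, MEG3 (−7.09 ± 0.48), PLAGL1 (−5.86 ± 0.47) and SGCE (−6.31 ± 0.41). H19, the non-coding neighbour of IGF2, was called lower with touching ranges, at 0.565 to 51.5 CPM in conceptuses against 31.2 to 109 CPM.

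Beyond the lists and leaving out genes with a LOC symbol, the largest differences toward the conceptus included FETUB, a liver-type protease inhibitor, at 142 to 1018 CPM against 2 reads over 10 endometria. ZFP42, a stem cell marker known as REX1, ran from 72.3 to 180 CPM against 1 read, and PAGE4 from 12.6 to 643 CPM against 1 read. The bile acid enzyme AKR1D1 ran from 45.8 to 282 CPM against at most 0.0731 CPM (13.49 ± 0.58). Toward the endometrium the largest included the phospholipase PLA1A at 30.6 to 78.8 CPM against at most 0.0882 CPM (−12.43 ± 0.31), complement C4A at 138 to 479 CPM against at most 0.430 CPM (−11.96 ± 0.35), and the opioid precursor PENK at 56.8 to 326 CPM against at most 0.346 CPM (−11.66 ± 0.42, or −12.51 without the 5). MPTX, FNDC1-2, APOD, ELTD1, AGT, SPARCL1 and SPON2 differed by between −11.89 and −10.72, of which MPTX, APOD, AGT and SPARCL1 stood at −12.61, −11.99, −12.06 and −11.43 without the 5. KCNH6, a potassium channel, had no read in any conceptus and was at least 2377-fold higher in the endometrium. In all, 35 genes were at 100 CPM or more in every conceptus and under 1 CPM in every pregnant endometrium, and 2 genes met the reverse. Histone genes are among the 35, a class for which tissue and extraction reagent cannot be told apart, as described below. The reverse rule asked for under 1 CPM in every conceptus, also in the 5 libraries with the most EMX2 plus PAX2. The 35 and the 2 are therefore not a like-for-like contrast of the tissues.

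The largest differences toward the conceptus also held RNAs that lack a poly(A) tail. RN7SL1, the RNA of the signal recognition particle, ran from 11062 to 86218 CPM in conceptuses and from 0.313 to 16.5 CPM in endometria (12.71 ± 0.79). RMRP, the RNA of a ribonuclease, ran from 6195 to 23661 CPM against 0 to 2.58 CPM (14.73 ± 0.70). Of 36 tested histone genes 31, and of 383 tested tRNA genes 207, were large and consistent higher, with medians of 8.49 and 7.35. These gene classes moved with the tissue and with the extraction reagent, which cannot be told apart. With them left out 1391 genes were large and consistent higher and 3842 lower.

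The tissue difference was also read within each fertility class. Within HF, 17 conceptuses against 5 endometria gave 5974 large and consistent genes, which is 28.9% of those tested. Within SF, 10 against 5 gave 6250, which is 30.2%. Of the 5489 genes that were large and consistent over both classes, 5149 were so in each class on its own, and none had opposite signs. The pooled rule already kept the ranges apart within each class. Opposite signs were therefore all but excluded beforehand, and this overlap is no separate support. IFNT2 differed by 12.50 within HF and 12.15 within SF, IFNAR2 by −7.35 and −6.79, CDX2 by 6.86 and 7.99, and HAND1 by 11.98 and 8.08.

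A test of whether the tissue difference itself differed between SF and HF called no gene with edgeR's quasi-likelihood test, which is 0% of those tested. Without adjustment 1758 genes had a p under 0.05. DESeq2 called 4 and limma-voom called none. In the 20 libraries of the 8 heifers with both tissues, a fit with the heifer as a block called 710 genes, and the same 20 libraries without the block called 1150. The cause of the difference between these counts was not tested. A missed threshold in the full set does not show that the classes were alike.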

How the data were processed

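Poly(A)-selected RNA of both tissues was sequenced from stranded TruSeq mRNA libraries, per the labels' protocols, with endometrial RNA from Isol-RNA Lysis Reagent and conceptus RNA from an AllPrep kit. The authors deposited 1 table of whole-number read counts for 31651 named genes. HISAT2, StringTie, edgeR and UMD3.1 are named in the submitters' processing notes. The sources used here do not give versions, the role of each tool or the strand setting of the counting step.

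From these counts, genes passing edgeR's filter (minimum count 10, minimum total count 15 over 37 libraries) were fitted with TMM scaling (factors 0.719 to 0.987 in conceptuses, 1.588 to 1.765 in endometria) and a quasi-likelihood model of 5 groups (R 4.3.3, edgeR 4.0.16). The contrast was the mean of the 3 conceptus groups minus the mean of the 2 endometrium groups, with Benjamini-Hochberg adjustment over all tested genes. Alternatives used DESeq2 1.42.0, limma 3.58.1, other scalings, filters, fold limits and subsets of libraries. Some settings were chosen after seeing the data. They were the removal of the 5 conceptus libraries with the most EMX2 plus PAX2, leaving out small RNA and histone genes, and the unblocked fit of 20 libraries. The members and the gene lists were chosen with earlier results of these data known.

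Per list, up to 6 large and consistent members with the largest change were named if their mean reached 5 CPM in the tissue where they were higher. Receptors were given for many described ligands but not for all, and those of MSTN, CXCL9 and CXCL10 are among the ones left out. Beyond the lists, the 15 largest changes in each direction were taken among genes without a LOC symbol, some of which the lists also hold. LGALS9, MX1, SSLP1, PTGS2, CGA, SULT1E1, TKDP2, BUB1, PAG1, POU5F1, NANOG, SOX2, ESR1, PGR, OXTR, MUC16, IGFBP1, SLC2A1, AKR1B1, PTGFR, TAP1, B2M, HBA, H19, TDGF1, PAG21, IFN-TAU and MKI67 stand outside that rule and were chosen after their values were seen. ISL1, HNF4G, NT5E, TUBB4B, LGALS3, EGF, AREG, PDGFA and PDGFB also fall outside the rule, and this listing may be incomplete. Among the 15 toward the conceptus, 4 were tRNA genes, given only as a class. Some genes of the lists are counted but not reported here by name. Bounds for genes without a read take 3 counts over the group as the floor, and counting intervals are exact Poisson intervals that cover counting error only.

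The heifer number, matched between tissues by its last digits as described above, paired samples taken to be of the same animal. Deviations from group means correlated with a median r of 0.034 over 12 pairs of conceptus and endometrium of 1 heifer and of 0.519 over 8 pairs of conceptuses of 1 heifer, so the fit with the heifer as a block is given where it changes a call. Between different heifers the medians were −0.003 over 258 pairs of conceptus and endometrium and −0.055 over 343 pairs of conceptuses. On simulated counts over 19234 tested genes, 100% of genes changed 4-fold or 16-fold between tissues were called and 91% of those changed 16-fold were large and consistent, while 0.0531% of unchanged genes were called. For the difference between classes, 88% of genes changed 4-fold were recovered. All these rates describe the simulated counts. They were not shown to hold for the real libraries, where conceptuses of 1 heifer correlated and scaling factors differed between tissues.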

Additional observations from a re-analysis of the deposited data

Results flagged for a closer look

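Among 141 tests for a library standing apart within its group, over 29 measures, 20 set a library apart. For normally distributed values chance alone sets apart about 1 in 20. CPM values need not be normal and the measures are not independent, so that rate is only a rough guide. Of the 20, 12 fell on 3 of the 5 conceptus libraries with the most EMX2 plus PAX2. That sum was itself among the measures, so part of this concentration follows from how the 5 were picked.

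In HF short replicate 2, EMX2 plus PAX2 was at 7.22 CPM with the next library of its group at 0.763 CPM. GRP there was at 781 CPM with the next at 21.4 CPM, LIFR at 269 CPM with the next at 7.63 CPM, IFNAR2 at 0.676 CPM with the next at 0.0724 CPM, and the summed interferon-stimulated genes at 1075 CPM with the next at 513 CPM. HF long replicate 3, from the same heifer, had EMX2 plus PAX2 at 2.49 CPM (next 1.17), GRP at 419 CPM (next 43.3), LIFR at 120 CPM (next 29.7) and IFNAR2 at 0.553 CPM (next 0.259). SF replicate 9 had GRP at 207 CPM (next 40.5), LIFR at 72.1 CPM (next 23.4) and IFNAR2 at 0.890 CPM (next 0.384). All of these genes were higher in the endometrium than in the conceptus, and in each of these libraries they remained below the lowest endometrium.

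Other conceptus libraries stood apart in a single measure or in 2. CYP19A1 was at 184 CPM in SF replicate 4, with the next SF conceptus at 75.6 CPM. HF short replicate 7 had the summed stromal markers at 416 CPM (next 177) and SLC2A3 at 5110 CPM (next 2603). HF short replicate 5 had FGF2 at 2.91 CPM (next 1.39), and HF short replicate 6 had WNT6 at 79.0 CPM (next 49.4). Among endometria, P-HF replicate 4 had the lowest summed stromal markers, at 3868 CPM with the next at 5327 CPM, P-HF replicate 1 had the highest SLC2A3, at 19.4 CPM with the next at 11.1 CPM, and P-SF replicate 3 had the lowest HGF, at 8.33 CPM with the next at 12.1 CPM. None of these libraries crossed into the range of the other tissue.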

How the results depend on the processing

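The pooled count of 5489 large and consistent genes ran from 4056 with a 16-fold limit to 7643 with a 4-fold limit, and the counts within HF and SF also stayed within 1.5 times their values under every setting run. The 18493 called genes became 5737 when tested against an 8-fold limit. The count of genes whose tissue difference differed between classes, 0, was 4 with DESeq2, 710 with the heifer as replicate block, 1150 in the same 20 libraries without the block, and 0 to 4 when 1 endometrium was left out (4 without P-SF replicate 5 and 1 without P-HF replicate 4). The cause was not tested. The block changed no other of these counts by over 1.5 times. Leaving out 1 endometrium gave 5522 to 5639 large and consistent genes.

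Of 264 named genes 256 were called. In at least 1 setting 16 lost their call, and 7 that were not called gained a call with the same sign. A further count of 13 changed direction in at least 1 setting while called there or with the settings of the report. With library totals alone EGFR was at −0.0597, ITGA5 −0.0449, ITGA6 −0.0508, FGFR1 −0.743, FZD7 −0.0542, FZD8 −0.98, SLC2A1 −0.22, PDGFB −0.578 and MET −1.01. MET was at −0.32 in the 20 unblocked libraries, ERBB2 at 0.0118 with long HF conceptuses alone, and OXTR, TAP1 and TDGF1 at 0.20, 0.19 and 0.311 with SF conceptuses alone. Of 203 named genes that were large and consistent, 12 lost that status in some setting: ANGPT2, FGA, FGFR3, HNF4G, HSD17B1, IL18, ITGB8, NOTCH3, NT5E, PDGFRA, SMO and TUBB4B. IL18R1, not called over all libraries, was at −0.09 with library totals alone. It was called higher with long HF conceptuses alone (2.28), with short HF conceptuses alone (1.42) and in the 20 unblocked libraries (1.34). A gene with no read in 1 tissue gives only a lower bound of its fold at these depths.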
